A study of Mus musculus with 94 samples.

Results

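The genes examined here were those of the platelet-derived growth factor (PDGF) receptors and ligands. They were taken by symbol from the deposited table of single PV-ADSCs, the stem-like cells of the fat around the aorta. All 7 of the genes sought had a row among the 16069 genes of the table, namely Pdgfra, Pdgfrb, Pdgfrl, Pdgfa, Pdgfb, Pdgfc and Pdgfd. Each was described over all cells, in stromal cells, set as cells with a deposited value of at least 1000 for Dcn, and in the remaining cells, which are called other cells. Dcn encodes decorin, a proteoglycan of fibroblast matrix. No PDGF gene entered this division.

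The study sorted 94 single cells from peri-aortic adipose tissue of c57/bl mice aged 8 weeks, and 85 of them are in the table. The 9 remaining cells were not analysed here. The sort kept cells negative for CD144 and CD45 and positive for CD29 and Sca1, and the cells were sequenced fresh, without culture, treatment or any second group. No animal is named for any cell, so the cells count as 1 sample, and shares, ranges and SDs over cells are given without a test. Cells are named here by the number in their label.

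PDGFs are secreted dimers that bind receptor tyrosine kinases on stromal and vascular cells, where they drive division, migration and matrix production. PDGFRα binds the A, B and C chains, whereas PDGFRβ binds chiefly the B and D chains. In adipose tissue PDGFRα is widely used to mark fibroblasts and adipocyte progenitors, and PDGFRβ is known from pericytes, smooth muscle cells and part of the fibroblasts.

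The division gave 58 stromal and 27 other cells. The other cell closest to the threshold had a Dcn value of 269.00, and the stromal cell closest to it, S50, had 6521. The deposited values are read counts that were multiplied, for 5404 of the genes, by a factor. These genes fell into 13 groups of 113 to 810 genes, and in each cell the genes of a group shared their factor. Reads were recovered by dividing by that factor, and all reads below are such recovered reads. S50 stood apart. Its Dcn value came from 69 reads and a factor of 94.5, it had 850 genes above 0, and none of the 12 stromal markers reached 100 reads. The remaining 57 stromal cells held between 18172 and 282890 Dcn reads, whereas the 27 other cells held between 4 and 248. Of the other cells, 24 held at least 3 of 15 endothelial markers at 100 reads or more. Cdh5, which encodes the CD144 that was gated out, was above 0 in 23 of the 27 other cells and in 7 stromal cells, so the RNA of most other cells went against the gate. S34 was the one cell with both sets, 11 stromal and 6 endothelial markers at 100 reads. S18 and S29 held 5 and 6 mesothelial markers. The main counts that these cells enter are given with and without them. Depth was similar in both classes, with a median of 2963854 reads per stromal cell and 2714449 per other cell. Genes detected per cell differed more, with medians of 2813 and 1416. The part of this difference in the results below was not tested.

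Pdgfra, which encodes PDGFRα, was the PDGF gene found in most cells. Among stromal cells, 49 of 58 had reads of it (84.5%, exact 95% interval 72.6% to 92.7%). These intervals and all that follow cover counting error only. The cells with reads held from 4 to 7115, with a median of 942. Only S12, with 4 reads, fell below 10, and only S25 and S26, with 18 and 20 reads, fell between 10 and 100. The other 46 cells held at least 100 reads.

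Other cells held little Pdgfra. Reads were present in 5 of 27 (18.5%, interval 6.30% to 38.1%), with 3 reads in S76, 4 each in S19, S20 and S60, and 7 in S88. No other cell reached 10 reads, compared with 48 stromal cells. All 5 lay below every stromal cell with reads except S12. The mean of log2(deposited value + 1) was 8.15 ± 4.02 (SD, 58 cells) in stromal cells and 0.43 ± 0.94 (27 cells) in other cells. Without S50 the stromal share was 85.96%, and without S18, S29 and S50 it was 89.1% (49 of 55 cells, interval 77.8% to 95.9%).

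Pdgfrb, which encodes PDGFRβ, was found in fewer cells. It had reads in 19 of 58 stromal cells (32.8%, interval 21.01% to 46.3%) and in 0 of 27 other cells, which allows a share of up to 11.1%. The cells with reads held from 2 to 3741, with a median of 707. S66 held 2 reads and S81 held 87, and the other 17 cells held at least 100. The mean of log2(deposited value + 1) was 3.004 ± 4.52 in stromal cells. Without S18, S29 and S50 the share was 34.5%.

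Pdgfrl encodes a protein that resembles the ligand-binding part of PDGFRβ but has no kinase domain. It had reads in 10 stromal cells (17.2%, interval 8.59% to 29.4%). Reads were 77 in S11, 107 in S94, 194 in S47, 1615 in S79, 1653 in S23, 1777 in S31, 2496 in S9, 3868 in S92, 5471 in S73 and 15955 in S75. Of all stromal reads of Pdgfrl, 48.04% came from S75. The 2 other cells with reads, S3 and S20, held 3 and 2. The mean of log2(deposited value + 1) was 1.76 ± 4.06 in stromal cells and 0.21 ± 0.78 in other cells.

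Among the ligands, Pdgfd was found in most cells. It encodes PDGF-D, which is secreted in a latent form and released by proteases. Reads were present in 17 of 58 stromal cells (29.3%, interval 18.1% to 42.7%), from 1 to 4738 with a median of 126, and in other cells S3 and S76, with 85 and 40. Of the 17 stromal cells, 12 held at least 10 reads and 10 at least 100. Thus 5 stromal cells held fewer than 10 reads of Pdgfd, compared with 1 each for Pdgfra and Pdgfrb. The mean of log2(deposited value + 1) was 2.04 ± 3.80 in stromal cells and 0.43 ± 1.56 in other cells. Its 3 highest cells by reads were S24 with 4738 reads, S68 with 3318 and S12 with 1935. S12 was also the stromal cell with the fewest Pdgfra reads among those that had any.

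Pdgfc encodes the other ligand that is secreted in latent form. It had reads in 6 stromal cells and in 0 of 27 other cells, which allows a share of up to 11.1%. Reads were 6365 in S90, 2178 in S34, 1469 in S68, 209 in S28, 13 in S41 and 4 in S50. S90 held 62.2% of them, and the count was 5 cells without S50 and also 5 without S34.

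Pdgfa and Pdgfb encode the chains of the classical PDGFs, which are cleaved inside the cell before secretion. Pdgfa was found in 3 stromal cells, with 262 reads in S53, 313 in S75 and 341 in S63, and in 0 of 27 other cells, which again allows up to 11.1%. Pdgfb, which endothelial cells are known to release to recruit pericytes, had 1943 reads in S88 and 1047 in S55. Both were other cells with endothelial markers, 4 and 7 of them at 100 reads. Among stromal cells it had 3238 reads in S34 and 2 in S64. Thus 99.9% of the stromal reads of Pdgfb came from the cell with both stromal and endothelial markers, and without it 1 stromal cell with 2 reads remained.

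**Figure D1:**
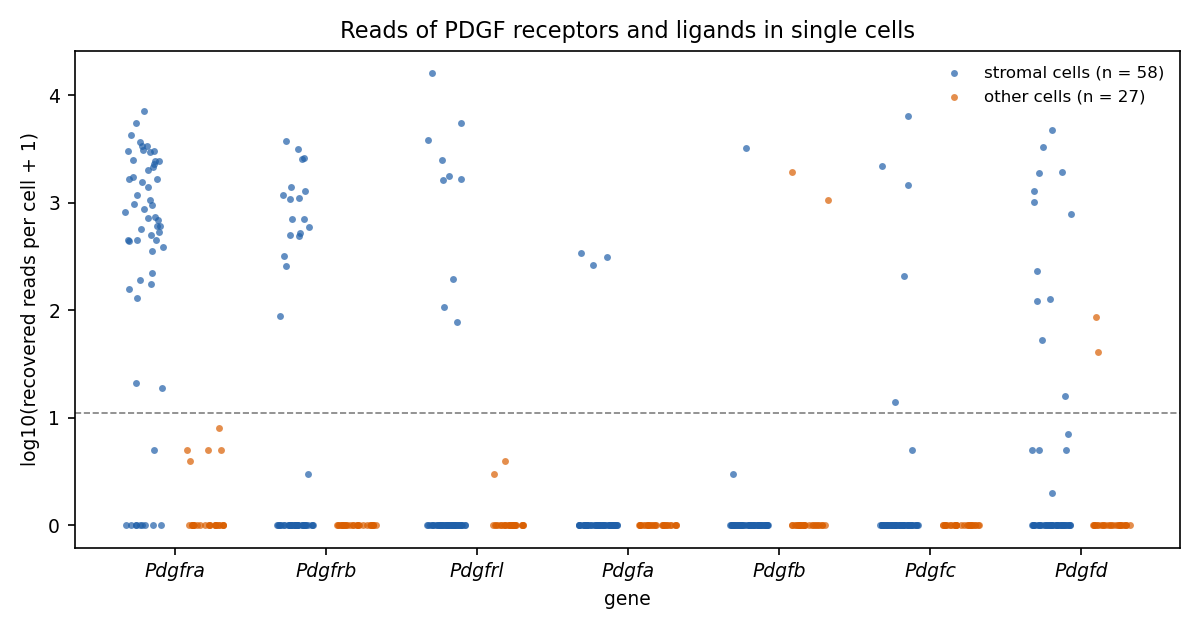
Recovered reads per cell of each PDGF gene, as log10(reads + 1), with 1 point per cell for 58 stromal cells (blue) and 27 other cells (orange); the dashed line marks 10 reads. Pdgfra was above the line in 48 stromal cells and in no other cell, Pdgfrb was at 0 in all other cells, and the ligands were at 0 in most cells of both classes.

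The plot of reads per cell shows these patterns side by side. When a gene was called as differing if its share of cells above 0 was at least 20 percentage points apart, Pdgfra (65.96 points), Pdgfrb (32.8 points) and Pdgfd (21.9 points) were higher in stromal cells, and no PDGF gene was higher in other cells. The call of Pdgfd was lost at both higher read levels, with a difference of 13.3 points at 10 reads and 17.2 at 100 reads, whereas those of Pdgfra and Pdgfrb were kept. At these levels 21.9% and 15.7% of all genes were called as higher in stromal cells. Of the 11478 genes with reads in 3 cells or more, 25.4% were called as higher in stromal cells and 1.11% as higher in other cells by the same rule. The differences of the remaining genes were 10.3 points for Pdgfc, 9.83 for Pdgfrl, 5.17 for Pdgfa and -3.96 for Pdgfb. That of Pdgfrl was 17.2 points at 10 reads, and that of Pdgfc was 5.201 points with a Dcn threshold of 10000, where S50 counts as an other cell. Of the 7 genes, 3 (42.9%) were called as higher in stromal cells, beside 25.4% of all genes. The median over the 7 genes was 10.3 points, compared with 9.32 points over all genes tested. This median was the difference of Pdgfc, found in 6 stromal and 0 other cells. With so few cells Pdgfc could not differ more in this direction, and neither could Pdgfa, found in 3 and 0. The median therefore cannot show whether the group lay close to the background. Pdgfra, Pdgfrb and Pdgfd lay above the median gene, Pdgfc and Pdgfrl slightly above it, and Pdgfa and Pdgfb below it. When every cell was thinned to 1146945 reads, Pdgfra was found in 49 stromal and 5 other cells, Pdgfrb in 18 and 0, and Pdgfd in 16 and 2.

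To compare genes with each other, CPM, the recovered reads of a gene relative to all recovered reads of the cell, was divided by the merged exon length in kilobases. On this scale the mean level over the 58 stromal cells was 56.9 ± 210 for Pdgfrl, 44.6 ± 47.5 for Pdgfra, 31.1 ± 105 for Pdgfd, 22.999 ± 51.9 for Pdgfrb, 10.95 ± 56.5 for Pdgfc, 3.94 ± 29.98 for Pdgfb and 1.56 ± 6.75 for Pdgfa. Each SD exceeded its mean, and no gene differed from its neighbour in this order by more than the spread over cells. The order also rested on single cells. Without its highest cell, Pdgfrl had a mean level of 33.04 and Pdgfra one of 41.8, which reversed the first places. The means also fell to 19.8 for Pdgfd, 4.02 for Pdgfc and 0.00303 for Pdgfb without their highest cells. Over stromal cells with reads, the median was 222 for Pdgfrl, 53.01 for Pdgfrb, 34.4 for Pdgfra and 13.6 for Pdgfd, and, over no more than 6 cells each, 114 for Pdgfb, 51.01 for Pdgfc and 31.02 for Pdgfa.

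The deposited values follow these reads more closely for some PDGF genes than for others. Pdgfa, Pdgfb and Pdgfc were not scaled. The factor between value and reads ranged from 0.751 to 1.10 for Pdgfra, from 0.672 to 1.21 for Pdgfd and from 0.603 to 2.87 for Pdgfrb. For Pdgfrl it ranged from 0.127 to 8.71. By deposited value the highest Pdgfrl cell was S9, whereas by reads it was S75. For Pdgfd the highest cell was S68 by value and S24 by reads. Detection above 0 is the same on both scales, since a factor does not change a 0. In each cell with reads, the factor of these 4 genes was fixed by at least 33 values of genes scaled alike.

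**Figure D2:**
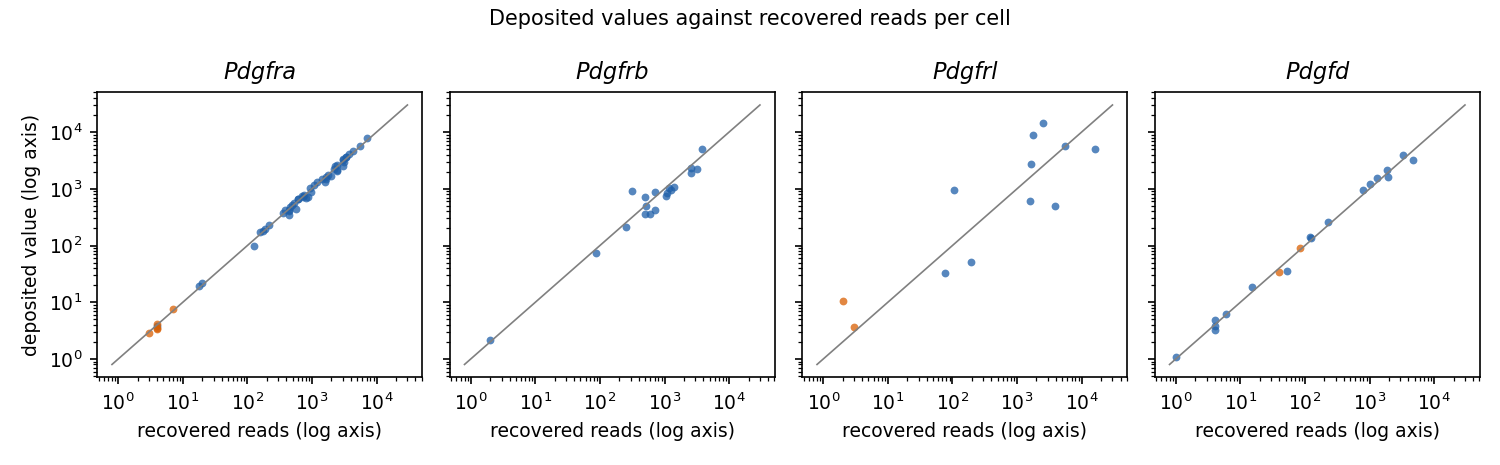
Deposited value against recovered reads per cell for the 4 scaled PDGF genes, on log axes, with stromal cells in blue, other cells in orange and the line where both are equal in grey. Pdgfra and Pdgfd lie near the line, with factors from 0.751 to 1.10 and from 0.672 to 1.21, and Pdgfrl is spread around it, with factors from 0.127 to 8.71.

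Whether single cells carried both receptors was examined next. In the 58 stromal cells, 16 had reads of both Pdgfra and Pdgfrb, 33 of Pdgfra only, 3 of Pdgfrb only and 6 of neither. The share with both was 27.6% (interval 16.7% to 40.9%). The product of the 2 separate shares gives 16.1 cells, given as a plain reference value. Pdgfra was found in 84.2% of the cells with Pdgfrb (interval 60.4% to 96.6%), compared with 84.5% of all stromal cells. Pdgfrb was found in 32.7% of cells with Pdgfra (interval 19.9% to 47.5%) and in 3 of 9 stromal cells without it (33.3%, interval 7.49% to 70.1%). The shares lay close together, but the interval for the 9 cells is wide. With at least 10 reads of each, 15 cells had both (reference 14.9), and with at least 100 reads 14 cells (reference 13.5). Without S50 the count of both was 16 against a reference of 16.3, and without S18, S29 and S50 it was 16 against 16.9. Over all 85 cells the reference was 12.1, because the other cells lowered both shares.

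**Figure D3:**
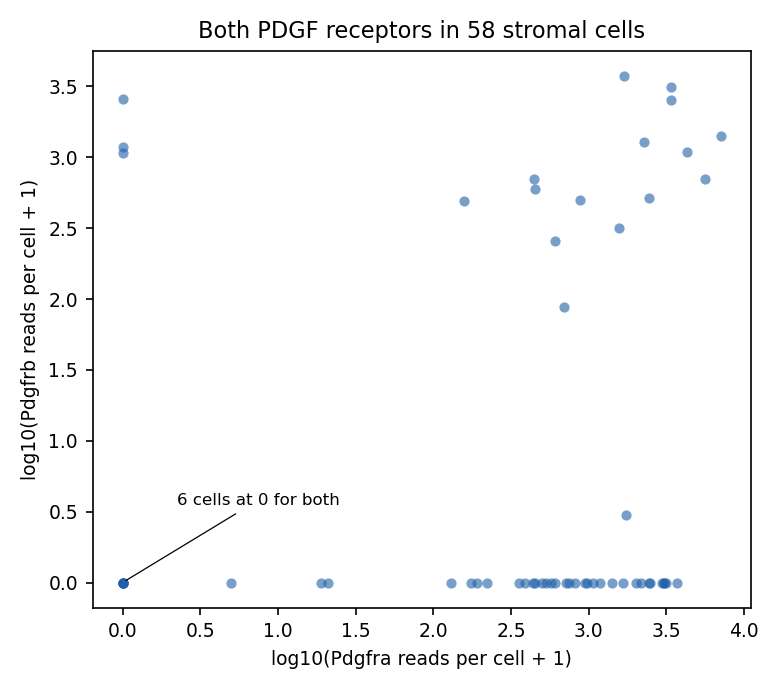
Recovered reads of Pdgfra (x axis) and Pdgfrb (y axis) per cell as log10(reads + 1), with 1 point for each of the 58 stromal cells. The 16 cells with both genes lie at upper right except for S66, which held 2 reads of Pdgfrb, 33 cells lie along the x axis, 3 along the y axis and 6 at the origin.

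In cells with both receptors, Pdgfra ranged from 44.5 to 2067 CPM (median 681, 16 cells), compared with 1.58 to 1361 (median 282, 33 cells) in cells with Pdgfra alone. The ranges overlapped over most of their length. The median depth was 3332784 reads in the first group and 2852045 in the second, and its part in this was not tested. Pdgfrb ranged from 0.743 to 1604 CPM in cells with both (median 225). In the cells with Pdgfrb alone it was 290.37 CPM in S47, 382 in S90 and 850.1 in S85, all inside that range. Of the 16 cells with both, 12 had more reads of Pdgfra than of Pdgfrb, but per kilobase this held in 8.

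The 9 stromal cells without Pdgfra were not alike. S47, S85 and S90 had 1070, 2585 and 1176 reads of Pdgfrb and held at least 10 of the 12 stromal markers at 100 reads. The 6 cells with neither receptor were S8, S18, S29, S49, S50 and S53. S18 and S29 were the cells with mesothelial markers, such as Msln and Upk3b, each of which was above 0 in 2 stromal cells. S50 was the cell set apart above, and S49 had 1182 genes above 0. S8 and S53 held 11 and 10 stromal markers and 2445 and 3715 genes, and so resembled the other stromal cells by these measures. Lrp1, a large endocytic receptor that associates with PDGFRβ, was above 0 in 16 of 16 cells with both receptors, 30 of 33 with Pdgfra only, 0 of 3 with Pdgfrb only and 4 of 6 with neither.

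As PDGFRβ is a marker of pericytes, the mural markers were counted in the same cells. Of 13 markers 11 had a row. Rgs5 and Mcam were above 0 in 0 of 58 stromal cells, which allows up to 3 cells, and each was found in 3 other cells. In stromal cells Cspg4 was found in 2, and Kcnj8, Notch3 and Des in 1 each. Tbx18 was found in 2, Vtn in 3, Ndufa4l2 in 6, Abcc9 in 10 and Anpep, which fibroblasts also express, in 24. At least 2 mural markers reached 100 reads in 7 stromal cells, and 1 of these had Pdgfrb. At least 1 reached it in 19 cells, and 8 of these had Pdgfrb. Of all 58 stromal cells, 32.8% had Pdgfrb. The summed level of the mural markers ranged from 0 to 1502 CPM in the 19 cells with Pdgfrb, with a median of 18.6, and their summed level of stromal markers ranged from 26534 to 130451 CPM. The 39 stromal cells without Pdgfrb ranged from 0 to 907 CPM in mural markers, with a median of 4.59. In the 19 cells with Pdgfrb, Rgs5, Mcam, Cspg4, Notch3, Des and Tbx18 were at 0, Kcnj8, Vtn and Ndufa4l2 were found in 1 each, Abcc9 in 4 and Anpep in 10. Smooth muscle genes with a row were Smtn and Lmod1 alone, and the others were not analysed here.

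Ligands and receptors were then set side by side within cells. At least 1 ligand was found in 22 of 58 stromal cells (37.9%) and in 4 of 27 other cells (14.8%). In 19 of the 22 stromal cells a receptor was found as well, and at 10 reads or more the numbers were 16 and 14. A receptor was found in 52 of all 58 stromal cells (89.7%), and in 51 at 10 reads or more, so the shares were similar. Without S50 a ligand was found in 21 of 57 stromal cells, and without S34 also in 21 of 57, of which 18 had a receptor. More than 1 ligand was found in 5 stromal cells, or 4 without S34, which carried Pdgfb, Pdgfc and Pdgfd. Pdgfc and Pdgfd were found together in 4 of them, S28, S34, S68 and S90, out of 6 cells with Pdgfc and 17 with Pdgfd, and in 3 without S34. The product of the separate shares in stromal cells gives a reference of 1.76. With at least 10 reads of each, 3 cells had both, against a reference of 1.03. S63 carried Pdgfa with Pdgfd.

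Pdgfd was found together with Pdgfrb, which encodes its main receptor, in 6 cells, S21, S63, S68, S78, S79 and S90. That is 31.6% of the cells with Pdgfrb, and the reference from the separate shares in stromal cells is 5.57. All 6 kept at least 10 reads of each gene, and at that level the reference is 3.72. Pdgfc was found with Pdgfra in S28, S34, S41 and S68, which is 4 of 6 cells (66.7%, reference 5.07), or 3 of 5 without S34. Pdgfa was found with Pdgfra in S63 and S75 but not in S53, which had neither receptor. No cell carried both Pdgfb and Pdgfrb, but the reference in stromal cells is only 0.66. Among the receptors, Pdgfrl was found with Pdgfrb in S9, S11, S47, S75, S79 and S92, against a reference of 3.28. All 6 of these kept at least 10 reads of each gene. The share of Pdgfrb cells with Pdgfrl was 31.6%.

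Counted over all 7 genes, 3 stromal cells had none, 23 had 1, 18 had 2, 9 had 3 and 5 had 4. Of the other cells, 20 had none, 3 had 1 and 4 had 2. S18, S29 and S49 were the stromal cells with none.

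The wider pathway was described with 7 gene lists, by the same rule of 20 points. They were chosen with earlier results of these data known. Among adaptors and kinases that bind or follow the activated receptors, 10 of 31 were higher in stromal cells and 0 in other cells, with a median difference of 13.5 points. Grb10, an adaptor, was above 0 in 27 stromal cells and 2 other cells. Pik3r1, a regulatory subunit of PI3 kinase, was found in 19 and 0. The adaptor gene Nck1 was among the smallest differences, with 12 stromal and 7 other cells. Among negative regulators, 4 of 15 were higher in stromal cells and 0 in other cells, with a median of 12.1 points. Gas1, a growth-arrest gene, was found in 48 stromal and 7 other cells and Socs3, a feedback inhibitor, in 42 and 12, whereas the ubiquitin ligase gene Cbl was found in 3 and 2. The shares called were 32.3% and 26.7%, beside 25.4% of all genes. Without S50, 11 adaptors and 5 negative regulators were called, beside 25.7% of all genes.

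Among coreceptors and PDGF-binding proteins, 9 of 14 were higher in stromal cells and 1 in other cells, with a median of 35.95 points. These are 64.3% and 7.14%, beside 25.4% and 1.11% of all genes. Lrp1 was above 0 in 50 stromal cells and 0 other cells, and the collagen genes Col1a1 and Col6a1 in 57 and 0 and in 50 and 1. Col1a1, Col1a2 and Col3a1 of this list are also stromal markers. Col5a1 and Col6a1, both called, encode matrix proteins, as does Dcn, which set the division. The share and the median of this list are therefore not independent of the division. Col4a1, of basement membranes, was found in 39 stromal and 15 other cells and Col3a1 in 58 and 24, both below 20 points. Their levels were unlike each other. Mean CPM of Col4a1 was 269 in stromal and 246 in other cells. For Col3a1 it was 8746 and 3.52, and 57 stromal and 0 other cells held at least 100 reads. Nrp2, a neuropilin that acts as a coreceptor of several growth factors, was the gene higher in other cells, with 2 stromal and 7 other cells. Nrp1 did not pass 20 points, with 17 and 10.

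Among the proteases that process PDGFs and their inhibitors, 3 of 8 were higher in stromal cells and 0 in other cells, with a median of 13.8 points. The share called was 37.5% of these few genes, beside 25.4% of all genes. Plat, which encodes the tissue plasminogen activator that releases PDGF-C, was found in 43 stromal and 5 other cells. The convertase genes Pcsk5 and Pcsk6 were found in 29 and 0 and in 27 and 1, and Pcsk5 also stood in the list of binding proteins. Furin, which encodes another convertase, was found in 6 and 1. Of the early response genes, 7 of 16 (43.75%, beside 25.4% of all genes) were higher in stromal cells and 0 in other cells. Their median was 15.1 points. Fosb was found in 48 and 9, Klf4 in 52 and 13 and Myc in 25 and 0. Such genes are also known to be raised by tissue digestion, and its part here was not tested.

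Of the kinase receptors related to the PDGF receptors, few had reads in enough cells. Kdr and Flt1, the VEGF receptor genes, were the 2 of this list that could be tested, and both were higher in other cells. By the same rule 1.11% of all genes were higher in other cells. Kdr was above 0 in 6 stromal and 16 other cells, and Flt1 in 10 and 21. Both also stand among the endothelial markers. Kit, Csf1r and Flt4 were each above 0 in fewer than 3 cells. Kit was found in 0 stromal cells and 1 other cell, Csf1r in 1 and 0 and Flt4 in 0 and 2. Among related ligands, 3 of 6 (50%, beside 25.4% of all genes) were higher in stromal cells and 0 in other cells. Their median was 17.2 points. Csf1, the macrophage growth factor, was found in 35 and 1, Vegfa in 23 and 1 and Vegfd in 13 and 0.

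**Figure D4:**
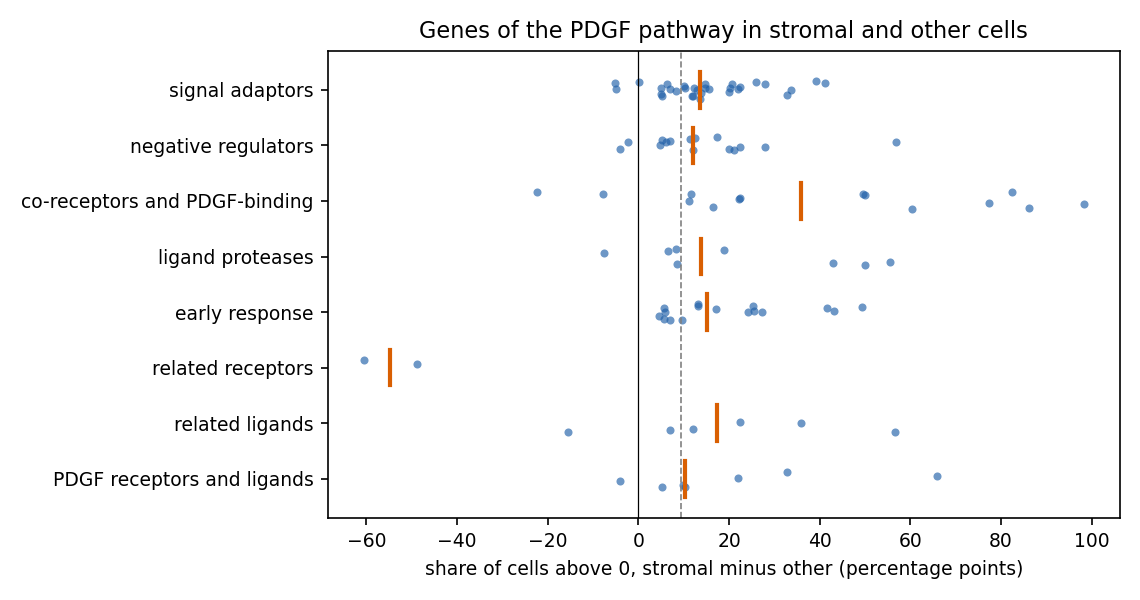
Difference in the share of cells above 0, stromal minus other, in percentage points, with 1 point per gene tested in each list, an orange bar at the median of the list and a dashed line at the median of all 11478 genes tested (9.32). The PDGF receptors and ligands have a median of 10.3 points with Pdgfra at the far right (65.96), coreceptors and PDGF-binding proteins reach a median of 35.95 points, and the related receptors Kdr and Flt1 lie at the far left.

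The plot of list differences places the PDGF genes within this pathway. Only the coreceptors and binding proteins and the related receptors had a median more than 10 points away from that of all genes.

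Finally, the genes whose level followed each receptor from cell to cell were sought by Spearman's rho over CPM, among genes with reads in 10 cells or more. All points are cells of 1 sample that share the division into stromal and other cells, so rho is a description. Over 85 cells and 6126 genes, the genes most like Pdgfra were Lrp1 (0.70), the intermediate filament gene Vim (0.68), the matrix gene Fbln2 (0.67), the growth factor gene Igf1 (0.67) and the collagen gene Col6a2 (0.66). Within the 58 stromal cells, over 5382 genes, they were Cnppd1 (0.51), Gm27907 (0.48), Mgst1 (0.44), Oat (0.44) and Impdh2 (0.44), so none of the first 5 was among them. Cnppd1 had reads in only 10 of these cells, the minimum of the filter, and Impdh2 in 19. Gm27907 had reads in 44, Mgst1 in 47 and Oat in 42.

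For Pdgfrb, the genes most like it over all cells were the noncoding RNA gene Meg3 (0.54), Nupr1 (0.49), the microfibril gene Mfap4 (0.49), Tulp4 (0.47) and Tcf7l1 (0.46). Within stromal cells they were Gm13921 (0.49), Mfap4 (0.45), Meg3 (0.42), Tulp4 (0.42) and Psmd6 (0.42), of which Mfap4, Meg3 and Tulp4 stood in both sets. Meg3 had reads in all 19 cells with Pdgfrb and in 49 of 58 stromal cells, and Mfap4 in 12 of the 19 and in 21 of 58. Gm13921 had reads in only 13 of 58, Psmd6 in 21 and Tulp4 in 30. Between the receptors, rho was 0.34 over all cells and 0.19 within stromal cells.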

How the data were processed

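Single PV-ADSCs were sorted and sequenced as 1 SMARTseq library per cell. The submitters' processing notes name HISAT2 2.0.5, SAMtools 1.4, StringTie 1.3.3 and the build mm9. The authors then kept cells with over 800000 aligned reads and deposited a signal, normalized read counts scaled per cell. The program that counted reads is not given in the sources used here. All columns of the table were used.

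Factors were found by linking genes with equal values and taking the largest common step, a method chosen after the values had been seen. Of 165973 values in genes above 0 in at least 10 cells, 3 lay further from a whole number than 4e-09 of their size or 2e-08 reads, whichever is greater. As a check of the routine, the recovered reads of the 16069 genes were multiplied by random factors in the same groups. Of the values above 0, 100% were then found again. Such reads already meet the assumption of the method, so the check cannot show that they are the true reads. Recovered reads served for depth and detection, with a value above 0 as detection, and deposited values with a pseudocount of 1 for mean log2 levels. Merged exon lengths came from GENCODE M21, another build than mm9, so no coordinates or sequences are given. The PDGF genes, gene lists and marker lists were chosen with earlier results of these data known. Named were all PDGF genes and markers, up to 5 genes with the largest and smallest differences of each list, and the 5 most alike genes. Acta2, Myh11, Ptprc, Ucp1 and some further markers were not analysed here, and some genes of the lists are not reported here. Intervals are exact Clopper-Pearson intervals. A count of 0 allows 3 cells of the total. Doublets were not called. Alternatives were levels of 10 and 100 reads, other divisions of the cells, CPM, a pseudocount of 10, thinning, and leaving out S34, S50, or S18, S29 and S50. The cells to leave out were chosen after seeing the data. Python 3.11.15, numpy 2.4.6, pandas 2.3.3, scipy 1.17.1 and matplotlib 3.10.9 were used.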

Additional observations from a re-analysis of the deposited data

How the results depend on the processing

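Of 189 alternatives computed, 185 left the value within its counting interval or spread, 4 moved it and 0 reversed it. These limits were wide, and some alternatives left out only a few cells, so the tally cannot show that the values were stable. The share difference of Pdgfd, 21.9 points, counted as unchanged at 13.3 points (10 reads) and 17.2 points (100 reads). Its call as higher in stromal cells was lost at both levels. The mean log2 difference of Pdgfra, 7.71, counted as unchanged at 5.31 with a pseudocount of 10. The difference in the share of cells with Pdgfra, 65.96 points between stromal and other cells, was 82.8 points at a level of 10 reads and 79.3 points at 100 reads, because the 5 other cells with reads held fewer than 10. Pdgfd was found in 19 of 85 cells above 0 and in 10 at 100 reads. With deposited values in place of CPM, 3 of the 5 genes most like Pdgfra over all cells were the same. The stromal class held 60 cells at a Dcn threshold of 100, 57 at 10000 and 57 when set by the other 11 stromal markers. No paired analysis was possible because there is 1 group and no replicate. All cells count as 1 sample, so the spread between animals is unknown, and reads without molecular identifiers are not independent molecules.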
